A study of Mus musculus with 6 samples.

Results

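The 34 genes described here encode the enzymes that make cholesterol, the proteins that set how strongly those enzymes are expressed, and the enzymes that make, lengthen and desaturate fatty acids. They were chosen by symbol from a table of 31883 genes, and all 34 were found in it. They fall into 18 cholesterol synthesis enzymes, 6 genes of SREBP control and sterol transport, and 10 genes of fatty acid synthesis, which are described apart. RNA was sequenced from mouse bone marrow-derived macrophages in 6 libraries, 3 labelled as a global CD22 knockout and 3 as wild type (WT), both of the C57Bl/6 strain. CD22 belongs to the Siglecs, receptors that bind sialic acid, and is known above all for damping signals in B cells. In both groups marrow cells from femurs became macrophages in medium conditioned by L929 fibroblasts, a source of macrophage growth factor. They were then exposed to 20 ng/mL IL-4, the cytokine that drives alternative activation, for 48 hours with 25% of the medium L929-conditioned. Cultures without IL-4 were not analysed here, so no value below measures a response to IL-4. The labels give no age of the mice, do not name the deleted part of the gene, and do not state whether each library of a group had its own mouse. What a p-value measures here is therefore the spread among the libraries sequenced, and that spread may be technical.

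Macrophages take up cholesterol with lipoproteins and dead cells and can also make it from acetyl-CoA. The SREBP transcription factors turn on the genes of both pathways. They are held in the endoplasmic reticulum with their escort SCAP by the INSIG proteins when sterols are plentiful, and move to the Golgi for cleavage when sterols run low. Fatty acid synthesis shares its acetyl-CoA precursor with cholesterol synthesis, and the stearoyl-CoA desaturases turn its saturated products into monounsaturated fatty acids.

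Levels are FPKM, fragments mapped to a gene scaled to the length of its transcripts and to the mapped fragments of the library, so levels of different genes can be compared. Read counts are unknown. Relative depth, read from the steps of low FPKM values, was taken against WT library 1. It was 1.11, 1.1 and 1.1 in the knockout-labelled libraries, against 1.02 and 0.973 in WT libraries 2 and 3. All knockout-labelled depths were thus above all WT depths, and the part of this in the values below was not tested. The FPKM of Cd22 itself was 8.85, 8.21 and 9.53 in the knockout-labelled libraries, against 8.95, 9.36 and 10.6 in the WT libraries (log2 fold change -0.11, limma adjusted p = 0.695). The groups overlapped, so the transcript level does not separate the genotypes. Reads outside a deleted stretch would still count towards the gene, and groups are therefore called by their labels throughout. All 11 macrophage markers and all 10 markers of IL-4 activation passed the filter on low values, and 0 of either list were called (limma), with an unadjusted p below 0.05 for 1 and 2 of them. Correlations of log2 values across genes were 0.988 to 0.993 between libraries of a group and 0.986 to 0.990 between groups. Some markers of other tissues stood out in WT library 1 or WT library 2. In WT library 1 the summed FPKM was 5.90 for 9 skeletal muscle transcripts, against at most 0.237 in each of the other libraries. That of 8 hepatocyte transcripts was 3.52 in WT library 1, against at most 0.646 in each of the others. Cyp2e1 (3.05) and Alb (0.470) made up this hepatocyte sum, with the other listed hepatocyte genes at 0 in WT library 1. In WT library 2 the summed FPKM was 7.43 for 5 epididymis transcripts, against at most 0.048 in each of the others. Fibroblast markers summed to 4.10, 2.88 and 1.09 in the knockout-labelled libraries, against 2.80, 2.15 and 2.64 in the WT libraries. For neutrophil markers the sums were 1.25, 1.59 and 0.672, against 1.01, 0.887 and 0.319 in WT. For B cell markers they were 4.41, 4.51 and 3.67, against 3.89, 3.66 and 3.96 in WT. The mitochondrial genome's transcripts made up 17.2%, 20.4% and 15.6% of all FPKM for the knockout-labelled libraries, against 11.8%, 11.7% and 16.5% for the WT libraries. The labels give every library a different batch code, so batch and library cannot be told apart.

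No gene of either pathway passed the test between the genotypes. Of the 34 genes, 30 reached an FPKM of 1 in 3 or more libraries and were tested, and 0 were called at an adjusted p below 0.05 (limma, Benjamini-Hochberg adjustment over 10777 genes), against 0.408% of all genes tested. An unadjusted p below 0.05 was found for 1 of the 30, Insig1, against 11.0% of all genes tested. The groups did not overlap in 5 of the 30, against 17.1% of all genes tested, with Hmgcs1, Lss, Insig2 and Scd1 lower in the knockout-labelled libraries and Fads1 higher. The difference was above 0 for 11 of the 30 (36.7%), beside 42.1% of all genes tested, and below 0 for 19. Of these 19, Fdps and Scap changed sign with the scaling. Their median log2 fold change was -0.03, beside -0.02 over all genes tested. These shares are near or under the background, and in bulk RNA fewer cells of a type and less RNA per cell cannot be told apart. The remaining 4, Tm7sf2, Hsd17b7, Acss2 and Elovl6, had an FPKM below 1 in every library.

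The libraries were alike for most of these genes. The highest library was within 1.5-fold of the lowest for 30 of the 34 genes, and over 2-fold for 1, Scd1, at 7.61-fold. The median coefficient of variation within a group was 9.10% for the cholesterol enzymes, 7.46% for the SREBP control genes and 12.7% for the fatty acid genes. The 34 genes together summed to an FPKM of 376, 375 and 398 in the knockout-labelled libraries, against 412, 365 and 392 in the WT libraries.

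**Figure D1:**
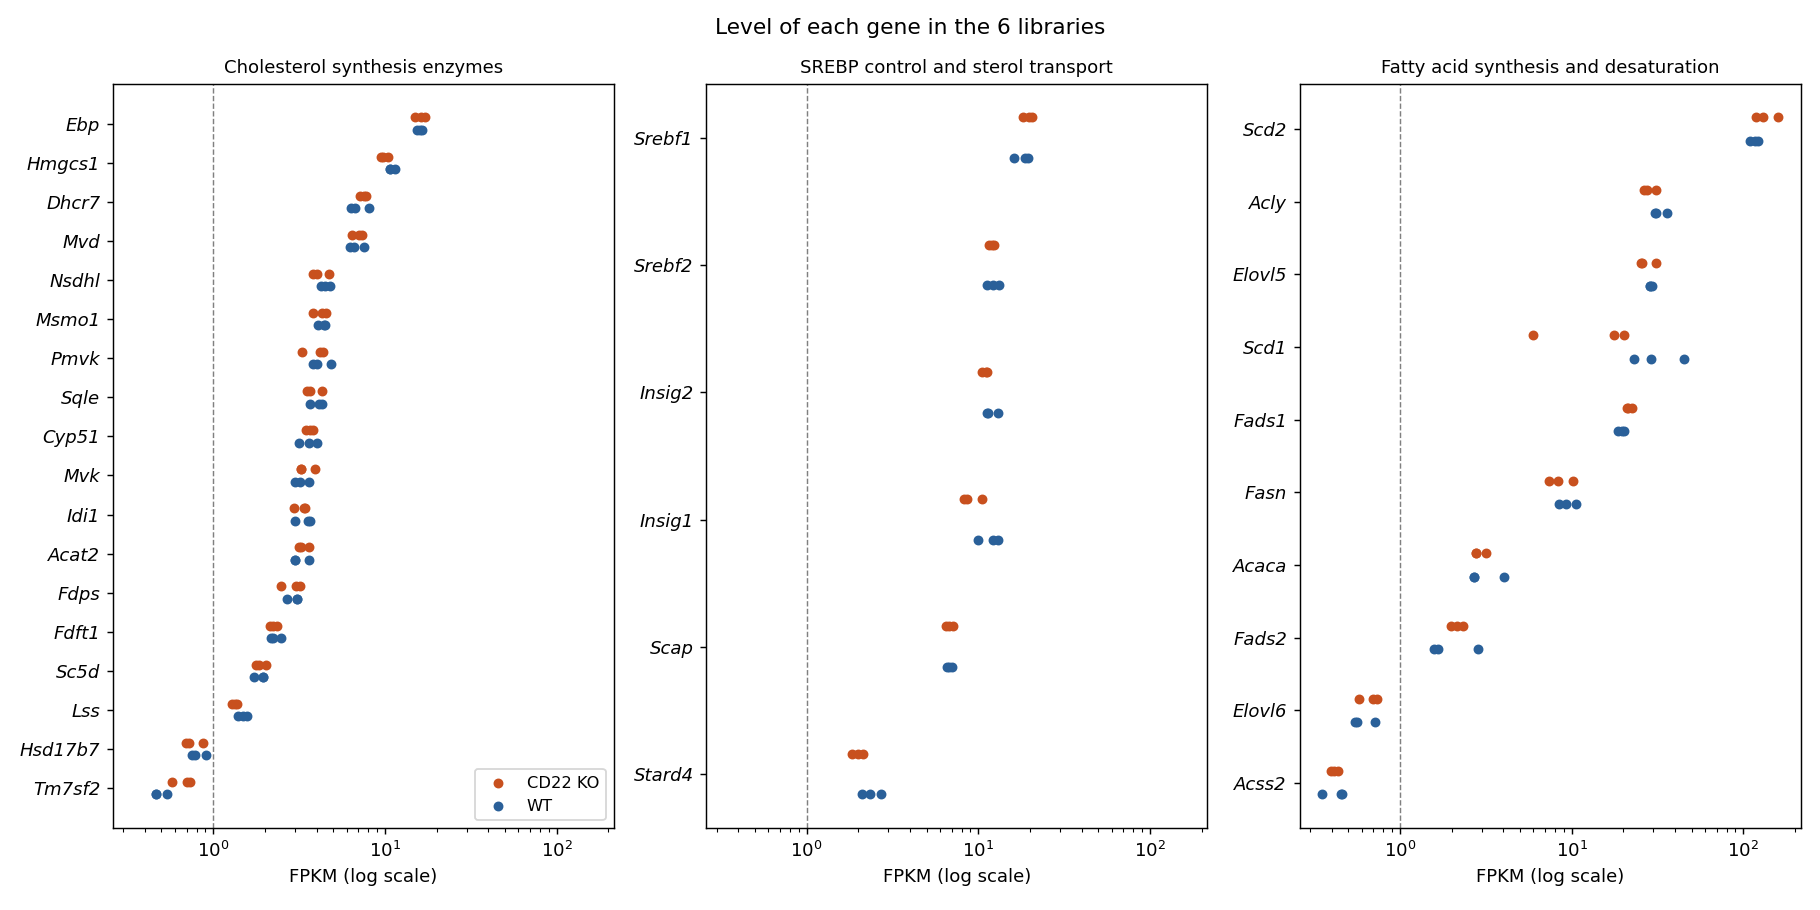
FPKM (log scale) of each gene in the 3 CD22 knockout-labelled libraries (orange) and the 3 WT libraries (blue), in the 3 groups of genes, with a dashed line at an FPKM of 1. Orange and blue points lie close together in nearly every row, Scd2 is the highest gene at 109 to 159, and Scd1 is the row where the points spread most.

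Among the cholesterol synthesis enzymes, 0 of the 16 tested were called, with 7 values above 0 and 9 below. Their log2 fold changes ran from -0.14 to 0.08 with a median of -0.02, and every one of the 16 95% intervals lay between -0.32 and 0.29. The smallest adjusted p was 0.516 (limma). The summed FPKM of the 18 enzymes was 82.7, 78.6 and 79.3 in the knockout-labelled libraries, against 80.9, 81.7 and 81.4 in the WT libraries. These sums averaged 80.2 ± 2.16 with the knockout label and 81.3 ± 0.376 in WT (SD, n = 3 each), so they differed by less than the spread of the knockout-labelled libraries.

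The enzymes differed far more from each other than between genotypes. Ebp, the sterol isomerase of the late pathway, was the highest, with an FPKM of 17.2, 14.9 and 16.2 in the knockout-labelled libraries, against 15.3, 16.1 and 16.4 in the WT libraries. The groups overlapped, and the means of 16.1 ± 1.14 with the knockout label and 15.9 ± 0.552 in WT (SD, n = 3 each) differed by a log2 fold change of 0.01. Ebp was above 75.3% of all genes tested. Dhcr7, the reductase that makes cholesterol from its dehydro precursor, had an FPKM of 7.13, 7.57 and 7.81 in the knockout-labelled libraries, against 6.68, 6.37 and 8.13 in the WT libraries, and the groups overlapped (log2 fold change 0.08, SE 0.093). Mvd, the decarboxylase that yields the isoprenoid building block, had an FPKM of 7.39, 6.43 and 7.11 in the knockout-labelled libraries, against 7.57, 6.31 and 6.65 in the WT libraries, also with overlap (log2 fold change 0.03, SE 0.087). In each library Ebp was above Hmgcs1 and Hmgcs1 was above Dhcr7 and Mvd, while Dhcr7 and Mvd overlapped in range.

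Hmgcs1 (ENSMUSG00000093930), the cytosolic synthase that makes HMG-CoA for the mevalonate pathway, lay at the lower end of the differences. Its FPKM was 10.4, 9.77 and 9.44 in the knockout-labelled libraries, against 11.5, 10.8 and 10.8 in the WT libraries. The 3 knockout-labelled values were all below the 3 WT values. The log2 fold change was -0.14 (SE 0.074, 95% interval -0.31 to 0.02), which did not pass the test (limma, adjusted p = 0.516). Lss, which closes the sterol ring system, also showed no overlap, with an FPKM of 1.38, 1.30 and 1.34 in the knockout-labelled libraries, against 1.58, 1.49 and 1.40 in the WT libraries. Its log2 fold change was -0.09 (SE 0.084), with an adjusted p of 0.745 in limma. Nsdhl, the dehydrogenase that helps remove methyl groups from the sterol nucleus, had an FPKM of 3.80, 4.01 and 4.71 in the knockout-labelled libraries, against 4.48, 4.77 and 4.25 in the WT libraries, with overlap (log2 fold change -0.09, SE 0.088).

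The other enzymes had lower levels. In the early steps, Acat2, the thiolase that joins acetyl-CoA units, averaged an FPKM of 3.35 ± 0.231 in the knockout-labelled libraries and 3.19 ± 0.352 in the WT libraries (SD, n = 3 each, here and in the following pairs). Mvk and Pmvk, the kinases that act in turn on mevalonate, averaged 3.47 ± 0.369 and 3.95 ± 0.560 FPKM in the knockout-labelled libraries, against 3.27 ± 0.321 and 4.23 ± 0.580 in the WT libraries. For Idi1, which isomerises the building block, the means were 3.27 ± 0.262 FPKM with the knockout label and 3.41 ± 0.365 in WT. Farnesyl diphosphate synthase, Fdps, had a mean of 2.91 ± 0.388 FPKM with the knockout label and 2.95 ± 0.221 in WT. All of these groups overlapped.

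The later enzymes run from squalene onwards. Fdft1, squalene synthase, averaged 2.23 ± 0.106 FPKM in the knockout-labelled libraries and 2.30 ± 0.170 in the WT libraries. Sqle, the squalene epoxidase that is a rate-limiting step, averaged 3.84 ± 0.414 FPKM in the knockout-labelled libraries and 4.05 ± 0.332 in the WT libraries. Cyp51, the lanosterol demethylase, stood at 3.65 ± 0.159 FPKM with the knockout label and 3.61 ± 0.431 in WT. Groups overlapped for all 3. The methylsterol oxidase Msmo1 stood at 4.22 ± 0.378 FPKM with the knockout label and 4.33 ± 0.197 in WT. Sc5d, a sterol desaturase, was at 1.88 ± 0.123 FPKM with the knockout label and 1.88 ± 0.126 in WT. Hsd17b7, a sterol ketone reductase under the filter, was at 0.764 ± 0.098 FPKM with the knockout label and 0.816 ± 0.084 in WT. Tm7sf2, a sterol reductase, was also under the filter, with an FPKM of 0.735, 0.703 and 0.574 in the knockout-labelled libraries, against 0.462, 0.467 and 0.538 in the WT libraries. Its knockout-labelled values were all above its WT values, with a ratio of means of 1.37, the largest of the 18 enzymes, and with no filter on low values its adjusted p was 0.725 (limma). Tm7sf2 shares 532 bases with Vps51 on the same strand in GENCODE M21, and Fdft1 shares 774 bases with Ctsb on the opposite strand. Ctsb had an FPKM of 2001 ± 129 in the knockout-labelled libraries and 2087 ± 46.3 in the WT libraries. Acss2 shares 22544 bases with Gss, Cyp51 166 with Akap9 and Srebf1 109 with Rai1, all on opposite strands. How reads in shared stretches were assigned is not stated, so the levels of these 5 genes are uncertain.

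Promoter sequence was examined because SREBP acts at sterol regulatory elements beside sites for the factor NF-Y. RefSeq windows of 300 bases, from 250 bases before to 50 bases after a gene's start (GRCm38.p6), were at hand for 27 of the 34 genes. Searched on both strands, CCAAT, the core of NF-Y sites, was present in 14 of 15 cholesterol enzymes (93.3%), in 4 of 5 SREBP control genes and in 4 of 7 fatty acid genes. The share was 43.0% among genes tested and 41.1% over all genes with a window. A gene counted if any of its windows held the motif, and some genes had several windows. By window, CCAAT was in 14 of 18 for cholesterol enzymes, 5 of 10 for SREBP control and 4 of 7 for fatty acid genes. Among the windows of genes tested the share was 37.8%. The GC box GGGCGG was present in 22 of the 27 genes, beside 70.2% of genes tested. It was in 14 of the 15 cholesterol enzymes, 5 of 5 SREBP control genes and 3 of 7 fatty acid genes. The sterol regulatory element, searched as TCACNCCAC, was found in 1 of the 27, Hmgcs1. The share was 1.32% among genes tested and 1.44% over all genes with a window. A match is a description of the letters and not a binding site. Only exact matches within these windows were sought, so a missing match does not show that a gene lacks an element. The promoters below are shown for the gene that holds the element, for the gene with the most CCAAT motifs, Mvk with 5, and for Insig1, the gene with the smallest p. Capitals mark CCAAT and the GC box, read on either strand, and, in Hmgcs1, the sterol regulatory element TCACCCCAC, which begins 137 bases before the start. The windows lie at chr13:119690101-119690400 for Hmgcs1, chr5:114444019-114444318 for Mvk and chr5:28071162-28071461 for Insig1, all on the plus strand and all written 5′ to 3′.
Hmgcs1: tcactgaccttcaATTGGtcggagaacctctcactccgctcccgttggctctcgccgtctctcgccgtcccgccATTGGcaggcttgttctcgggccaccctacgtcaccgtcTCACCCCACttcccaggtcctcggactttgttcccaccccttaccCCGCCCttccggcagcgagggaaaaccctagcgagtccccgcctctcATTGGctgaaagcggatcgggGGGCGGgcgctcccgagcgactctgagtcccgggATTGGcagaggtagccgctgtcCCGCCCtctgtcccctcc
Mvk: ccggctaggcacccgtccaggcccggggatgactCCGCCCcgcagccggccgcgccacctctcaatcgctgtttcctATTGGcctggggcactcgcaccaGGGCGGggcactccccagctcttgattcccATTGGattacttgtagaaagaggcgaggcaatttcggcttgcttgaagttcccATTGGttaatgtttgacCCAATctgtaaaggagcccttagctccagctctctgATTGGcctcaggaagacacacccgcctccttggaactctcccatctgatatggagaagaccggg
Insig1: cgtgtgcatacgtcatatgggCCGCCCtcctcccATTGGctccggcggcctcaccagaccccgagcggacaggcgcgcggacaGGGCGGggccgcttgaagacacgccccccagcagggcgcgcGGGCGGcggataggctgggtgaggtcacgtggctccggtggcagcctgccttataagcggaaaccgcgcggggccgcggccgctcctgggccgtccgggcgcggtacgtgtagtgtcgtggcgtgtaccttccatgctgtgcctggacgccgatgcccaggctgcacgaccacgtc
The Hmgcs1 window holds 4 CCAAT motifs and 3 GC boxes, Mvk holds 2 GC boxes, and Insig1 holds 1 CCAAT motif and 3 GC boxes. Their log2 fold changes were -0.14 for Hmgcs1, 0.06 for Mvk and -0.32 for Insig1.

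In the SREBP control group, 0 of the 6 genes were called, and the smallest adjusted p was 0.337 (limma). The difference was above 0 for 1 gene and below 0 for 5, beside 42.1% above 0 among all genes tested. The median log2 fold change was -0.07. The summed FPKM averaged 60.3 ± 0.854 in the knockout-labelled libraries and 63.2 ± 3.66 in the WT libraries (SD, n = 3 each).

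Insig1 (ENSMUSG00000045294, chr5:28071363-28078662 in GENCODE M21) encodes an INSIG retention protein and is itself a target of SREBP. Its FPKM was 8.66, 8.30 and 10.5 in the knockout-labelled libraries, against 12.2, 9.94 and 13.0 in the WT libraries. Knockout-labelled library 3 lay above WT library 2, so the groups overlapped. The means of 9.16 ± 1.20 with the knockout label and 11.7 ± 1.57 in WT (SD, n = 3 each) gave a ratio of 0.782, and the log2 fold change was -0.32 (SE 0.112, 95% interval -0.57 to -0.07). It did not pass the test over all genes (limma, adjusted p = 0.337). Insig2, the other INSIG gene, had an FPKM of 10.5, 11.3 and 11.0 in the knockout-labelled libraries, against 11.4, 13.0 and 11.3 in the WT libraries. Here the groups did not overlap, but the highest knockout-labelled value and the lowest WT value both round to 11.3, and the log2 fold change was -0.11 (SE 0.079, limma adjusted p = 0.652), or -0.053 without WT library 2. The ratio of Insig1 to Insig2 was 0.826, 0.736 and 0.954 in the knockout-labelled libraries, against 1.07, 0.765 and 1.14 in the WT libraries, with overlap.

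Both transcription factor genes overlapped between the groups. Srebf1, which encodes the SREBP form tied most to fatty acid genes, had an FPKM of 20.4, 19.7 and 18.1 in the knockout-labelled libraries, against 19.6, 16.1 and 18.7 in the WT libraries. Srebf2, which encodes the form tied most to cholesterol genes, had an FPKM of 12.4, 11.5 and 12.0 in the knockout-labelled libraries, against 13.3, 11.2 and 12.3 in the WT libraries. The log2 fold change was 0.10 for Srebf1 (SE 0.090) and -0.03 for Srebf2 (SE 0.082), and that of Srebf1 ran from 0.022 without WT library 2 to 0.16 without WT library 1. Srebf1 was above Srebf2 in every library, by a ratio of 1.65, 1.71 and 1.52 with the knockout label, against 1.47, 1.43 and 1.52 in WT. Scap, the sterol-sensing escort, averaged 6.79 ± 0.284 FPKM in the knockout-labelled libraries and 6.80 ± 0.226 in the WT libraries (SD, n = 3 each). Its log2 fold change was below 0.01 in size and changed sign with 3 of the scalings tried. Stard4, a carrier that moves sterol between membranes, was the lowest of the group. Its FPKM was 1.85, 2.00 and 2.13 in the knockout-labelled libraries, against 2.73, 2.34 and 2.11 in the WT libraries, with overlap at WT library 3 (log2 fold change -0.18, SE 0.092, limma adjusted p = 0.519). Without WT library 1 it was -0.11. In order of level, Srebf1 stood above all others in every library, Srebf2, Insig2 and Insig1 overlapped in range, Scap came next, and Stard4 was below Scap in every library.

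**Figure D2:**
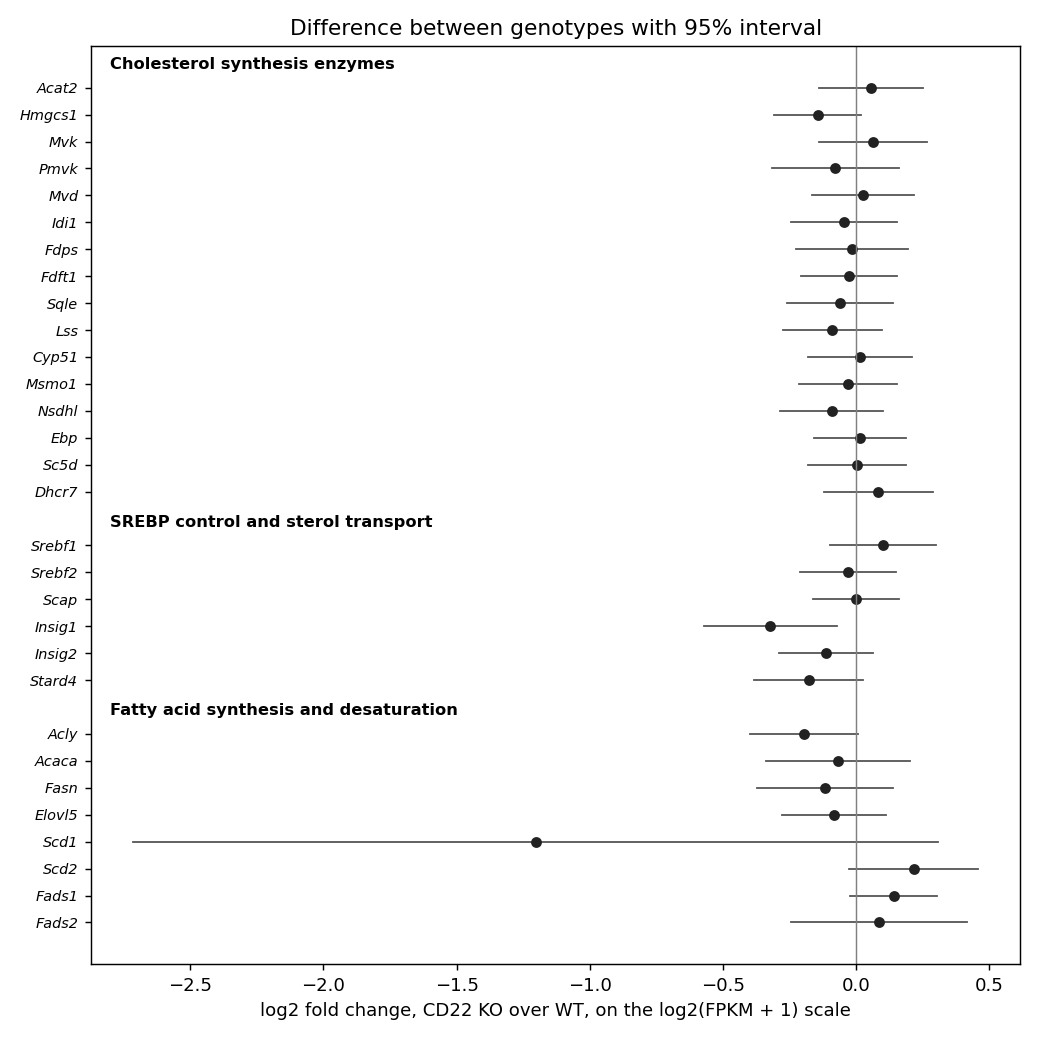
Log2 fold change of each of the 30 genes tested (points), CD22 knockout-labelled over WT, on the log2(FPKM + 1) scale, with 95% intervals from limma (lines). The intervals cross 0 for every gene but Insig1 (-0.57 to -0.07), which did not pass adjustment over all genes, and the interval of Scd1 (-2.71 to 0.31) is the widest.

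The fatty acid genes were the most abundant group and held the largest difference, in Scd1. Of the 8 tested, 0 were called, with 3 values above 0 and 5 below and a median log2 fold change of -0.08. The smallest adjusted p was 0.467 (limma). The summed FPKM of the 10 genes averaged 242 ± 13.5 in the knockout-labelled libraries and 245 ± 20.4 in the WT libraries (SD, n = 3 each). Without the desaturases Scd1 and Scd2 it averaged 92.1 ± 2.72 in the knockout-labelled libraries and 96.6 ± 5.64 in the WT libraries.

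The enzymes that supply and join acetyl units came first in the pathway. Acly, which cleaves citrate into cytosolic acetyl-CoA for both pathways, had an FPKM of 31.0, 27.4 and 26.4 in the knockout-labelled libraries, against 36.0, 31.1 and 30.6 in the WT libraries. Knockout-labelled library 1 lay within the WT range, and the log2 fold change was -0.20 (SE 0.092, 95% interval -0.40 to 0.01, limma adjusted p = 0.467), or -0.12 without WT library 1. Acss2, which makes acetyl-CoA from acetate, was under the filter, between 0.396 and 0.438 FPKM in the knockout-labelled libraries and between 0.354 and 0.459 in the WT libraries. Acaca, the carboxylase that commits acetyl-CoA to fatty acids, averaged 2.91 ± 0.222 FPKM in the knockout-labelled libraries and 3.14 ± 0.773 in the WT libraries (SD, n = 3 each). WT library 1 stood apart for Acaca at 4.03, above the range of 2.69 to 3.16 of all others, and without it the log2 fold change was 0.08 in place of -0.07. Fasn, fatty acid synthase, which builds palmitate, averaged 8.63 ± 1.39 FPKM in the knockout-labelled libraries and 9.41 ± 1.10 in the WT libraries (SD, n = 3 each), with overlap (log2 fold change -0.12, SE 0.115). It ran from -0.23 without knockout-labelled library 1 to -0.023 without knockout-labelled library 3.

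The elongases differed from each other by more than 30-fold. Elovl5, which lengthens polyunsaturated chains, had an FPKM of 25.2, 25.9 and 31.0 in the knockout-labelled libraries, against 28.6, 28.8 and 29.3 in the WT libraries. The WT values lay inside the knockout-labelled range (log2 fold change -0.08, SE 0.089). Elovl6, which lengthens palmitate, had an FPKM of 0.698, 0.738 and 0.576 in the knockout-labelled libraries, against 0.715, 0.546 and 0.565 in the WT libraries, all under the filter. The ratio of Elovl5 to Elovl6 was 36.1, 35.0 and 53.9 in the knockout-labelled libraries, against 40.1, 52.8 and 51.8 in the WT libraries, with overlap.

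As deposited, Scd2 had the highest level of the stearoyl-CoA desaturases. This ranking could depend on how reads were divided between close copies, which was not tested. Scd2 (ENSMUSG00000025203, chr19:44293674-44306864) had an FPKM of 119, 129.9 and 159 in the knockout-labelled libraries, against 117, 109 and 122 in the WT libraries. It was above 97.2% of all genes tested and above every other gene of the 34 in every library. The groups overlapped, and the log2 fold change was 0.22 (SE 0.109, limma adjusted p = 0.502), or 0.099 without knockout-labelled library 3. Scd1 (ENSMUSG00000037071, chr19:44394455-44407879), a target of SREBP and of the sterol-sensing LXR receptors, had an FPKM of 20.1, 17.8 and 5.92 in the knockout-labelled libraries, against 45.1, 23.1 and 29.2 in the WT libraries. Every knockout-labelled value was below every WT value. The means of 14.6 ± 7.61 with the knockout label and 32.4 ± 11.4 in WT (SD, n = 3 each) gave a ratio of 0.450. The log2 fold change was -1.20 with a wide error (SE 0.560, 95% interval -2.71 to 0.31), and it did not pass the test (limma, adjusted p = 0.535).

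The Scd1 difference was smaller without either of its extreme libraries. Without knockout-labelled library 3 the log2 fold change was -0.69 (limma adjusted p = 0.490), and without WT library 1 it was -0.94 (limma adjusted p = 0.712). The same libraries were at the ends of a list of 13 markers of adipocytes, cells that express Scd1 strongly. Summed, these markers had an FPKM of 12.1, 14.2 and 4.06 in the knockout-labelled libraries, against 55.1, 14.7 and 19.3 in the WT libraries. WT library 1 was the highest for 12 of the 13, knockout-labelled library 3 was at the lowest value for 13 of 13, and the WT mean was higher for 13 of 13. Adipoq, which encodes adiponectin, had an FPKM of 2.16, 2.95 and 1.19 in the knockout-labelled libraries, against 5.92, 2.46 and 3.36 in the WT libraries. Cidea was listed at 0 in every library but WT library 1, at 0.289. Of the 13 markers 5 were tested and 0 called, with 0 at an unadjusted p below 0.05 (limma), and their part in the Scd1 values was not tested.

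The sum of Scd1 and Scd2 differed between the groups by less than the spread of either. It was 139, 148 and 165 FPKM in the knockout-labelled libraries, against 162, 132 and 151 in the WT libraries, or 150.4 ± 13.1 with the knockout label and 148 ± 15.2 in WT (SD, n = 3 each). The ratio of Scd2 to Scd1 was 5.90, 7.31 and 26.8 in the knockout-labelled libraries, against 2.59, 4.72 and 4.19 in the WT libraries. All knockout-labelled ratios were above all WT ratios, a restatement of the Scd1 values that gets no test of its own. The mouse desaturase genes are close copies, and the authors' counting could have split reads between them, so the division between Scd1 and Scd2 is uncertain. Scd3 was listed at 0.414 FPKM in knockout-labelled library 3 and at 0 in the other 5 libraries.

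**Figure D3:**
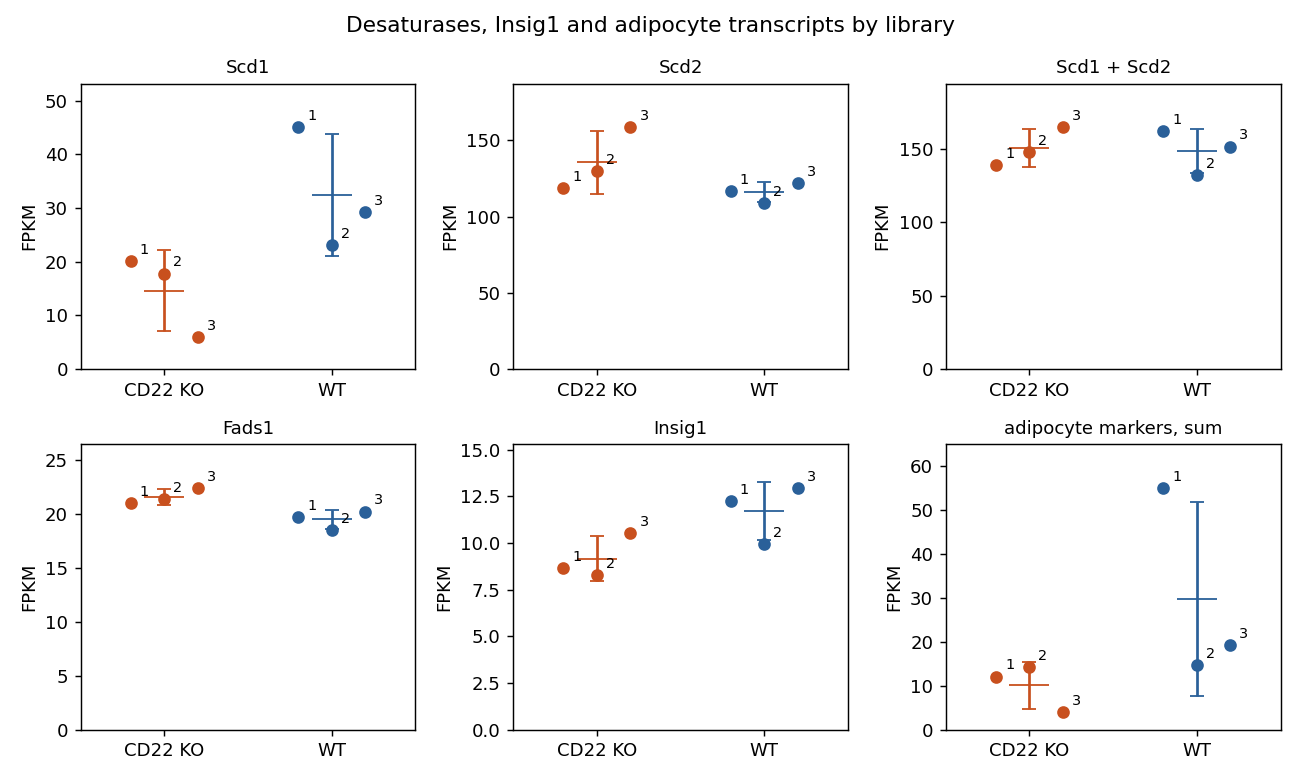
FPKM of Scd1, Scd2, their sum, Fads1, Insig1 and the sum of 13 adipocyte markers in each library (points, numbered by replicate), with the mean and SD of the 3 CD22 knockout-labelled libraries (orange) and the 3 WT libraries (blue). Scd1 and the adipocyte markers share their highest library, WT 1 (45.1 and 55.1), and their lowest, knockout-labelled 3 (5.92 and 4.06), while Scd1 plus Scd2 spans 132 to 165 in all.

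Fads1 and Fads2, the desaturases that make long polyunsaturated fatty acids such as arachidonic acid, lie near each other on chromosome 19. Fads1 had an FPKM of 21.0, 21.4 and 22.4 in the knockout-labelled libraries, against 19.7, 18.5 and 20.2 in the WT libraries. All 3 knockout-labelled values were above all 3 WT values, by a ratio of means of 1.11 (log2 fold change 0.14, SE 0.074, limma adjusted p = 0.522). Fads2 had an FPKM of 2.34, 2.00 and 2.14 in the knockout-labelled libraries, against 2.85, 1.57 and 1.66 in the WT libraries, with overlap (log2 fold change 0.09, SE 0.146). In every library Fads1 exceeded Fads2, by a ratio of 8.95, 10.7 and 10.5 with the knockout label and 6.92, 11.8 and 12.2 in WT. WT library 1 was the highest library for 5 of the 10 fatty acid genes (Acly, Acaca, Fasn, Scd1 and Fads2), and knockout-labelled library 3 for 3 (Elovl5, Scd2 and Fads1). The adipocyte marker sum given above was also highest in WT library 1, but it was lowest in knockout-labelled library 3. The part of these markers in the values of the fatty acid genes was not tested.

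**Figure D4:**
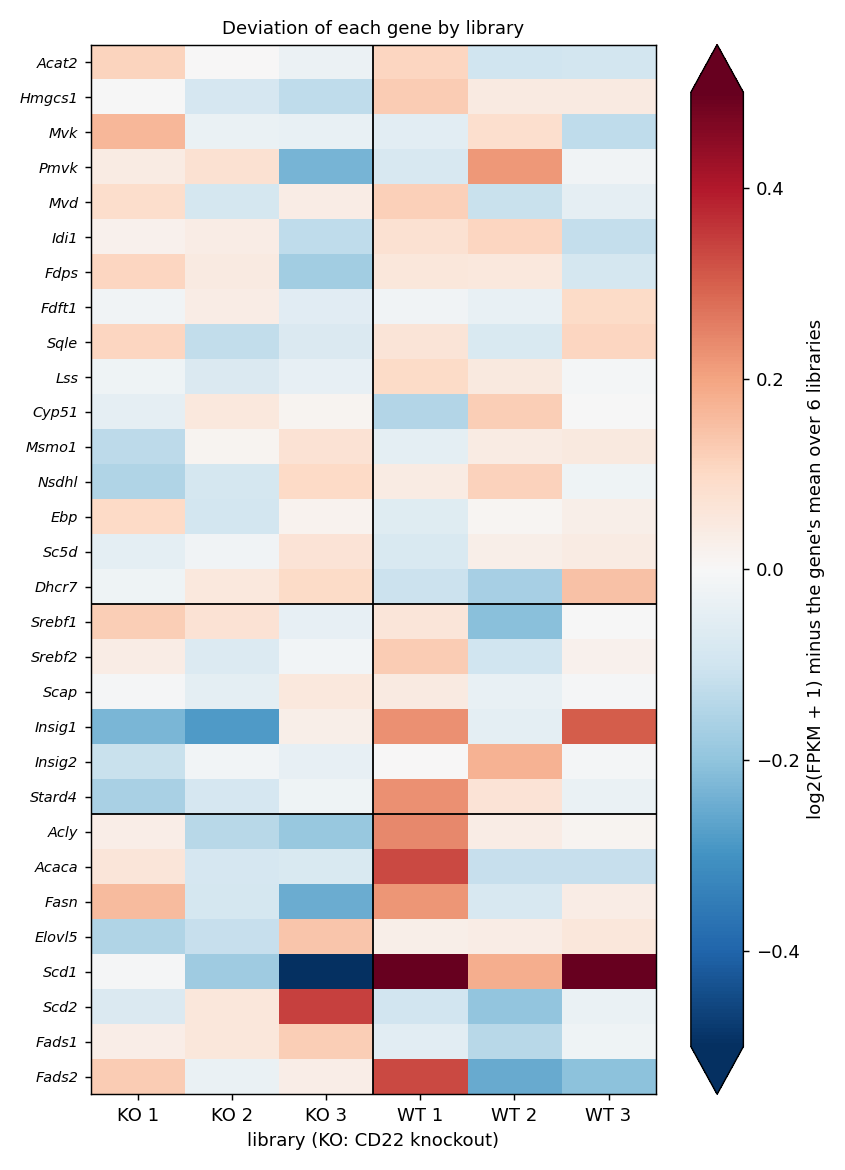
Deviation of each of the 30 genes tested (rows) from its own mean over the 6 libraries (columns), in log2(FPKM + 1), with black lines between the 3 groups of genes and between CD22 knockout-labelled (KO) and WT libraries. Most cells are pale. WT library 1 is red for Insig1, Stard4, Acly, Acaca, Fasn, Scd1 and Fads2, and WT library 3 for Insig1 and Scd1. Knockout-labelled library 3 is blue for Scd1 and red for Scd2. Weaker blue cells include Insig1 in knockout-labelled library 2 (-0.28) and Fads2 in WT library 2 (-0.25). The colour scale ends at -0.5 and 0.5.

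Further genes of the same routes were also examined. Of 6 other sterol pathway genes 5 were tested and 0 called. Ggps1, which makes a prenyl donor for protein prenylation, had the smallest p of them and averaged 4.14 ± 0.259 FPKM with the knockout label and 5.01 ± 0.376 in WT (SD, n = 3 each, log2 fold change -0.22, limma adjusted p = 0.352). Of 14 other genes of SREBP processing and sterol sensing 13 were tested and 0 called. The smallest p was that of Erlin1, at 9.17 ± 0.928 FPKM with the knockout label and 10.6 ± 0.058 in WT (limma adjusted p = 0.413). Of 29 other fatty acid genes 19 were tested and 0 called. Hsd17b12, a reductase of chain elongation, was the highest, at 73.7 ± 9.17 FPKM with the knockout label and 67.3 ± 4.54 in WT. Acsl4, which activates arachidonic acid, had the smallest p, at 24.7 ± 1.11 with the knockout label and 28.9 ± 1.68 in WT (log2 fold change -0.22, limma adjusted p = 0.338). An unadjusted limma p below 0.05 was found for 1 of 5, 2 of 13 and 4 of 19 genes tested in these lists. Each share was above the 11.0% of all genes tested, in lists of few genes.

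In the authors' deposited table the smallest q-value among the 34 genes was 0.395, for Scd2, followed by 0.407 for Insig1, and none of the 34 was marked as significant there.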

How the data were processed

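Poly(A) RNA of 6 macrophage libraries, 3 labelled CD22 knockout and 3 wild type, went into stranded libraries with paired-end sequencing, per the labels' protocols. The authors deposited 1 table of FPKM values per gene, with no read counts. It also holds a fold (the ratio of mean FPKM, knockout-labelled over wild type), its log2, and the authors' p-value and q-value, per the file headers. Per the submitters' processing notes the tools were HISAT2, StringTie, cutadapt, FastQC, edgeR and DESeq2. For their versions and roles, the genome build and strand use in counting, nothing is stated in the sources used here. Gene positions came from GENCODE M21 (GRCm38) by gene ID, which held 31792 of 31883 IDs.

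FPKM is relative to the library, so abundant transcripts such as the mitochondrial ones can shift all other genes. Genes that reached an FPKM of 1 in 3 or more libraries entered the test on log2(FPKM + 1), a scale that understates the change of low genes, with limma 3.58.1 in R 4.3.3, with robust moderation, a mean-variance trend and no other terms. Tests were 2-sided, with Benjamini-Hochberg adjustment over all genes tested and 95% intervals per gene. The script was tested on simulated data. Counting intervals could not be given without counts.

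The members, marker lists and other lists were chosen with earlier results of these data known. Values in every library are given for the 4 highest members and the 3 with the smallest p of each group, and for the pairs Srebf1 and Srebf2, Insig1 and Insig2, Scd1 and Scd2, Fads1 and Fads2, and Elovl5 and Elovl6. Of the other lists the gene with the smallest p or the highest FPKM is named, and some of these are not reported here. Those of Tm7sf2 are given because its groups did not overlap, which was chosen after its values were seen. Alternatives tried were no filter, a pseudocount of 0.1, a minimum FPKM of 5, quantile normalization, median centring, rescaling without mitochondrial genes, no robust moderation, no trend, a replicate block, an adjusted p below 0.1, each library left out in turn, and WT libraries 1 and 2 left out together.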

Additional observations from a re-analysis of the deposited data

How the results depend on the processing

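In each of the 3 groups of genes 0 were called under every alternative tried. The filters, moderation, trend and block settings cannot move a gene's log2 fold change. Of the 330 values under the other alternatives 295 kept their direction and 35 over 15 genes changed sign, and the lowest adjusted p was 0.138 (limma), for Insig1 without knockout-labelled library 3. Without WT libraries 1 and 2, where the lone WT library is assumed to vary like the knockout-labelled ones, log2 fold changes of the opposite sign were 0.095 for Idi1, 0.079 for Fdps, -0.022 for Ebp, -0.040 for Sc5d, -0.10 for Dhcr7, 0.0054 for Scap and 0.081 for Acaca. Median centring gave 0.0031 for Fdps and 0.017 for Scap, quantile normalization 0.0029 for Fdps and 0.020 for Scap, and rescaling without mitochondrial genes 0.0074 for Scap. With 1 library left out at a time, the values that changed sign ran from -0.0036 to 0.12 for Mvk, -0.14 to 0.019 for Pmvk, -0.024 to 0.092 for Mvd, -0.12 to 0.0065 for Idi1, -0.072 to 0.067 for Fdps, -0.053 to 0.015 for Fdft1, -0.054 to 0.081 for Cyp51, -0.074 to 0.029 for Msmo1, -0.031 to 0.065 for Ebp, -0.034 to 0.027 for Sc5d, -0.089 to 0.026 for Srebf2, -0.029 to 0.023 for Scap, -0.14 to 0.080 for Acaca and -0.019 to 0.27 for Fads2. The medians ran from -0.039 to 0.0082 for cholesterol enzymes, -0.087 to -0.043 for SREBP control and -0.11 to 0.022 for fatty acid genes. With an FPKM of at least 5, 4 cholesterol enzymes were left, with a median of 0.020. With 1 library left out at a time, values kept their sign but moved by over 1.5 times for some genes. These were Acat2 (0.012 to 0.12), Sqle (-0.13 to -0.014), Nsdhl (-0.16 to -0.040), Dhcr7 (0.022 to 0.18), Srebf1 (0.022 to 0.16) and Insig2 (-0.15 to -0.053). The same held for Stard4 (-0.24 to -0.11), Acly (-0.26 to -0.12), Fasn (-0.23 to -0.023), Elovl5 (-0.17 to -0.028), Scd1 (-1.50 to -0.69) and Scd2 (0.099 to 0.31). Insig1 ran from -0.43 to -0.25. Over all genes, 44 calls became 3 with no filter, 11 without WT libraries 1 and 2 and 78 at an adjusted p below 0.1. With 1 library left out there were 28 (without knockout-labelled library 2) to 92 (without knockout-labelled library 3). The causes of these changes were not tested.

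Deviations of same-numbered libraries of the groups had correlations of 0.056, -0.034 and 0.070, against -0.094 to 0.025 for differently numbered ones. With 3 libraries per group these values cannot decide whether the numbers are a pairing. A fit with the replicate block called 63 genes, 0 of them among the 34, with log2 fold changes and medians (-0.02, -0.07 and -0.08) as without it. Read depth is unknown, so how far it limits the genes of low FPKM cannot be given.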

Other observations

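The 34 genes together made up 0.111%, 0.108% and 0.120% of all FPKM for the knockout-labelled libraries, against 0.131%, 0.112% and 0.117% for the WT libraries. Scd1 and Scd2 made up 62.0% ± 2.14 of the fatty acid sum in the knockout-labelled libraries and 60.5% ± 1.42 in the WT libraries (SD, n = 3 each). Scd1, Scd2, Acly, Elovl5 and Fads1 were each above 80.8% or more of all genes tested, while Fasn was above 59.2% and Acaca above 24.8%.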
